A study of Mus musculus with 38 samples.

Results

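Spleens of male C3H/HeJ mice given 10 rad (10 cGy) of X-rays were compared with spleens of sham-exposed male C3H/HeJ mice on 6 2-colour oligonucleotide arrays, taken by their strain label from a series of 38 arrays of 6 inbred strains. Mice were 10 to 14 wk old by the labels, and spleens were taken 3.5 hr after exposure. Each array carried RNA of 1 irradiated and 1 sham mouse. Every such pair of mice was hybridised again with the dyes exchanged, so that the 6 arrays stand for fewer pairs of mice than arrays, and the labels do not say which arrays share a pair. Irradiated RNA carried Cy5 on 3 arrays (25, 27 and 29) and Cy3 on 3 arrays (24, 26 and 28). Irradiated and sham mice alike carry the Tlr4 mutation of this strain, and no C3H mice without it were on the arrays. The other 5 strains, on 32 arrays, were A/J, B6.C, Balb/C, C57Bl6/J and DBA/2J.

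Spleen is a lymphoid organ that filters blood, and its B and T lymphocytes are among the most radiosensitive cells of the body. Ionizing radiation breaks DNA, and the kinases that sense the breaks activate p53, which drives genes of cell cycle arrest and apoptosis. Tlr4 is the receptor through which macrophages and B cells respond to bacterial lipopolysaccharide, and C3H/HeJ mice respond weakly to it because a point mutation disables the intracellular signalling part of the receptor.

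The deposited value of a spot is a signed score that compares both dyes, and the sources used here give neither its scale nor which dye is on top. Each array was centred on the median of its probes, and the sign was turned where irradiated RNA was in Cy3. If the score sets Cy5 over Cy3, a positive turned value means higher signal in irradiated mice, and if it sets Cy3 over Cy5 it means lower signal, so no gene is called induced or repressed and no fold change is given. The response of a probe is the mean of both orientations with equal weight, and the part shared by both orientations before turning is called the dye component. Of 21618 distinct probes, 15942 had values on at least 2 arrays of each orientation and were tested. Through RefSeq accessions 6518 probes had 1 gene symbol, and 4796 of these were tested. Arrays were the units of the test, so p-values are too small as far as arrays share mice.

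The 6 arrays differed more from the other strains in spread and in deposited median than in depth. An array gave values for 11541 to 18145 probes, fewest on array 24. The SD over probes was 1.32 to 2.35 (median 2.17) on the C3H/HeJ arrays and 0.616 to 2.07 (median 0.948) on the 32 others. The deposited medians were -3.16 to -0.721 (median -2.49) in C3H/HeJ and -2.91 to 3.95 (median 0.776) on the 32 others. Array 24 correlated at -0.303 with array 97 of C57Bl6/J, which has irradiated RNA in the same dye. No other C3H/HeJ array correlated under -0.3 with an array of its own orientation. Such correlations cannot show which dye carried irradiated RNA. Array 24 correlated at 0.512 with array 25 of the opposite orientation and at 0.496 with array 26 of its own. The direction of arrays 24 and 97 is thus not settled by them. The values compare 2 RNAs on 1 array and give no level, so the tissue label could not be checked from them. Cd79a, Cd79b and Ms4a1 of B cells and Cd3e of T cells had values on all 6 arrays. However, 9940 of 21618 probes had values on all 6, among them Prss1 of the pancreas and Smcp of sperm. Having a value thus does not mark the tissue.

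Before turning, the 6 arrays went the same way. All 15 pairs of arrays correlated positively across probes, at 0.368 to 0.634 in the 6 pairs of the same orientation (mean 0.485) and at 0.265 to 0.558 in the 9 pairs of opposite orientation (mean 0.448). Probes are not independent replicates, and arrays of one pair of mice share RNA. The SD over probes was 1.35 for the dye component and 0.63 for the response. The mean of the Cy5 arrays correlated with that of the Cy3 arrays at r = 0.641. Across probes the dye component thus varied 2.14 times as much as the response.

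**Figure D1:**
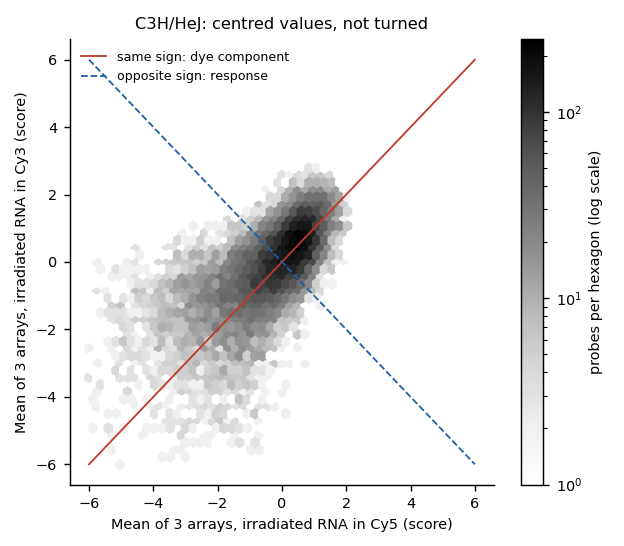
Mean centred value (score, not turned) of the 3 C3H/HeJ arrays where irradiated RNA carried Cy5 (x axis) against that of the 3 where it carried Cy3 (y axis), shaded by the number of probes. The 15725 probes drawn lie along the line of equal sign (r = 0.641 over all 15942), with a tail towards negative values on both axes, and 217 probes lie outside the axes.

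No probe differed between irradiated and sham C3H/HeJ spleens after adjustment. Of 15942 probes tested by limma, 0 (0%) had a Benjamini-Hochberg adjusted p under 0.05, and the lowest adjusted p was 0.702. At an unadjusted p under 0.05 there were 1120 probes (7.03%), 581 on the positive side (3.64%) and 539 on the negative side (3.38%). With arrays also divided by their spread there were 1282, 41.0% of them on the positive side, whereas the values as deposited gave 1327, 4.45% of them on the positive side, against 51.9% with centred arrays. The median response was -0.0878, and 58.3% of probes lay on the negative side. The median SE was 0.299 and the 95% interval reached a median of 0.745 to either side of the response, so that it stayed within -1 and 1 for 43.9% of probes. When each of the 6 possible matchings of swap partners was taken in turn, so that 3 values were tested, 0 probes passed in each and 618 to 1152 reached an unadjusted p under 0.05. A fit over all 38 arrays, which takes the spread from all strains, called 155 of the 15942 probes for C3H/HeJ, and 2 when the strains shared 1 dye term. Of the 155, 73 had values on 4 C3H/HeJ arrays, as had 1833 of all 15942.

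On all 6 arrays 9940 probes had values, and 269 of them (2.71%) had one sign on every array after turning. These were 209 on the positive side (2.1%) and 60 on the negative side (0.604%), whereas most responses were negative. Both counts depended on the centring, since with values as deposited 13 probes had one sign on every array, 0 on the positive side and 13 on the negative side. Among them were 59 named genes on the positive side and 20 on the negative side. The genes described next come from the 12 on each side with the smallest p. Since sign and p on these same 6 arrays chose them, how many keep their p under other settings is no independent support.

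On the negative side Gnb1, a beta subunit of heterotrimeric G proteins that carries signals from chemokine and other surface receptors, had the smallest p. Its turned values were -1.47, -2.24 and -2.08 with irradiated RNA in Cy5 and -0.739, -0.740 and -0.215 with it in Cy3 (response -1.25 ± 0.200 SE, 95% interval -1.73 to -0.760, unadjusted p = 0.000755 in limma). Ndst1, an enzyme that adds sulfate to heparan sulfate chains, had -1.93, -1.42 and -2.11 with irradiated RNA in Cy5 and -0.355, -0.212 and -0.133 with it in Cy3 (response -1.03 ± 0.183 SE, 95% interval -1.47 to -0.580, unadjusted p = 0.00132 in limma). In both genes every Cy5 array lay further from 0 than every Cy3 array. Wrn, a RecQ helicase that acts in DNA repair and is lost in Werner syndrome, had -1.31, -1.52 and -1.01 with irradiated RNA in Cy5 and -0.185, -0.712 and -0.0382 with it in Cy3 (unadjusted p = 0.00575). Every Cy5 array again lay further from 0 than every Cy3 array.

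Copz1, a subunit of the coat of vesicles that return from the Golgi apparatus, was the gene with the smallest dye component of the 12 (0.0488). Its values were -0.396, -1.11 and -0.566 with irradiated RNA in Cy5 and -0.529, -1.10 and -0.735 with it in Cy3 (response -0.740 ± 0.195 SE, 95% interval -1.22 to -0.264, unadjusted p = 0.00888 in limma). Krt88, a keratin, spanned -2.90 to -0.0731 (response -1.26, unadjusted p = 0.0151). Ywhab, a 14-3-3 protein that binds phosphorylated signalling proteins, had a response of -0.709, and Ssr1, a subunit of the complex at the protein channel of the endoplasmic reticulum, one of -0.619. Heyl, a Notch-induced repressor, had -0.484, and Sqstm1, the p62 adaptor that carries ubiquitin-tagged cargo to autophagosomes, had -0.509. The other 3 were Calm4, a calmodulin-related protein (-0.535), Psma3, an alpha subunit of the proteasome (-0.470), and Ms4a1, the B cell surface protein CD20 (-0.524). Of the 12 genes 10 had an unadjusted p under 0.05, 5 kept it when any array was left out, and 5 kept it in all 6 matchings of swap partners. With values as deposited 9 of the 12 had it, and in the fit over all 38 arrays 7.

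On the positive side the responses of the genes described lay closer together, from 0.592 to 0.832. Lalba, the milk protein alpha-lactalbumin, had the smallest p, with 0.898, 1.17 and 0.916 with irradiated RNA in Cy5 and 0.752, 0.727 and 0.140 with it in Cy3 (response 0.767 ± 0.183 SE, 95% interval 0.320 to 1.21, unadjusted p = 0.00566 in limma). Il1f6, also called interleukin 36 alpha, a cytokine of the interleukin 1 family, had 0.750, 1.03 and 1.0 with irradiated RNA in Cy5 and 0.394, 1.36 and 0.464 with it in Cy3 (response 0.832 ± 0.207 SE, 95% interval 0.327 to 1.34, unadjusted p = 0.00682 in limma). Sntb2, a syntrophin that anchors membrane proteins to the cytoskeleton, had a response of 0.692. The values of both orientations overlapped in Il1f6 and Sntb2, whereas in Lalba every Cy5 array was above every Cy3 array.

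Fgfr1, a fibroblast growth factor receptor, had 0.213, 0.328 and 0.833 with irradiated RNA in Cy5 and 1.03, 1.16 and 0.750 with it in Cy3 (unadjusted p = 0.00792). Hbegf, a ligand of the epidermal growth factor receptor, had 0.900, 1.01 and 1.13 with irradiated RNA in Cy5 and 0.281, 0.0917 and 0.131 with it in Cy3 (unadjusted p = 0.0112). In Hbegf the Cy5 arrays all lay above the Cy3 arrays, as they did in Sema6b, a transmembrane semaphorin, in Fxyd1, a regulator of the sodium pump, and in Tfap2c, a transcription factor of the AP-2 family. The responses of these 3 were 0.705, 0.716 and 0.750. Dnase1l2, a deoxyribonuclease, had a response of 0.699, Prxl2b, a prostaglandin F synthase, of 0.747, and Supt20, a subunit of the SAGA coactivator complex, of 0.620. All 12 genes had an unadjusted p under 0.05 and kept it when any array was left out, and 10 kept it in all 6 matchings of swap partners. With values as deposited 0 of the 12 had it, and the responses of the genes described were 0.148 to 0.388. In the fit over all 38 arrays 8 had it. None of the 24 genes on either side passed adjustment over all probes.

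**Figure D2:**
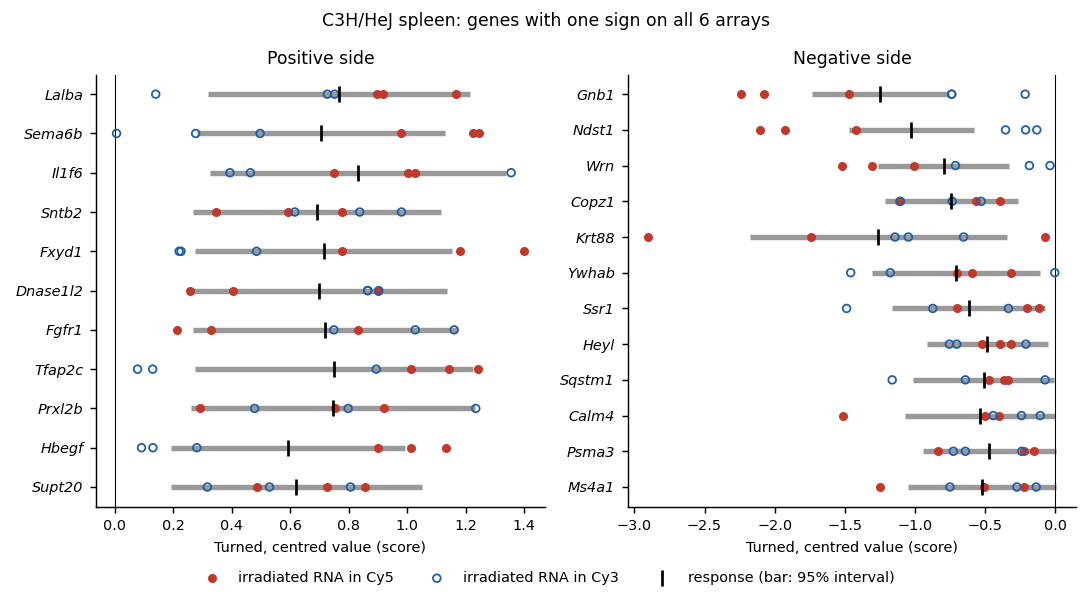
Turned, centred values (score, x axis) of the genes described from the 12 on each side with the smallest p among those with one sign on all 6 C3H/HeJ arrays, with filled points for irradiated RNA in Cy5, open points for irradiated RNA in Cy3, a tick for the response and a bar for its 95% interval (limma). Gnb1 and Ndst1 lie furthest from 0 relative to their error, with responses of -1.25 and -1.03, and in Gnb1, Ndst1, Wrn, Lalba, Sema6b, Fxyd1, Tfap2c and Hbegf the orientations do not overlap.

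Because this strain carries a mutated Tlr4, the receptor complex and its adaptors were looked at one by one. Of 21 genes of the list, 11 were on the array by accession and 8 were tested. None of the 8 (0%) had an unadjusted p under 0.05, against 7.03% of all probes, and 4 lay on either side (median 0.0298, against -0.0878 over all probes). Tlr4 itself had values on only 2 arrays, -5.70 on array 25 and 1.26 on array 26, and was not tested. Cd14, which hands lipopolysaccharide to the receptor, had values on 3 arrays, -8.17 on array 29 and 2.75 and 12.5 on arrays 26 and 28. These 2 genes thus had single values of opposite sign in the 2 orientations, and the secreted Lbp had none.

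Ly96, also called MD-2, binds lipopolysaccharide beside Tlr4 and had the smallest p of the list. Its turned values were -3.78, -1.21 and -2.22 with irradiated RNA in Cy5 and 0.334 and 0.288 with it in Cy3 (response -1.05 ± 0.421 SE, 95% interval -2.13 to 0.0306, unadjusted p = 0.0547 in limma). The sign thus depended on the dye of the irradiated RNA. Cd180 and Ly86, a receptor of B cells related to Tlr4 and its partner, had values on all 6 arrays. Cd180 ranged from -0.128 to 0.376 (response 0.0764, 95% interval -0.352 to 0.505). Ly86 had 0.450, 0.294 and 0.292 with irradiated RNA in Cy5 and 0.390, -1.07 and 0.0491 with it in Cy3 (response 0.0679, 95% interval -0.521 to 0.657), with array 26 apart from the others.

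Of the adaptors and kinases, Myd88, the adaptor shared by most Toll-like receptors, had a response of -0.0652 (95% interval -1.54 to 1.41), which allows a shift of over 1 to either side. The kinase Irak1 had 0.256 (-0.339 to 0.852), and the ubiquitin ligases Traf6 and Traf3 had -0.00824 (-0.684 to 0.668) and 0.222 (-0.801 to 1.25). Sigirr, a receptor that dampens this pathway, had -0.260 (-0.808 to 0.287). The signs of Cd180, Irak1, Ly86, Myd88, Traf3 and Traf6 turned under at least 1 other setting. Of the list of other Toll-like receptors Tlr2 (-0.107) and Tlr6 (-0.0812) were tested, and neither had an unadjusted p under 0.05. The same held for all 10 tested genes of NF-kB, the transcription factor at the end of the pathway, 5 of which lay on either side (median 0.0155). In the contrast of C3H/HeJ with the other 5 strains 0 of the 8 tested genes of the receptor complex passed adjustment, and the median difference was -0.318, against -0.0993 over all probes.

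Of the inflammatory cytokines and chemokines, 21 of 27 on the array were tested. On the positive side lay 14 of them (median 0.119), where 41.7% of all probes did. Of the 21, 1 (4.76%) had an unadjusted p under 0.05, against 7.03% of all probes. This was Ccl2, the main chemokine for monocytes, with 0.269, -0.238 and 1.15 with irradiated RNA in Cy5 and 1.21, 0.428 and 2.22 with it in Cy3 (response 0.839 ± 0.312 SE, 95% interval 0.0776 to 1.60, unadjusted p = 0.0357 in limma). Array 27 was the only one below 0. Tnf, a cytokine released on Tlr4 signalling, had 0.603, 0.0517 and 0.412 with irradiated RNA in Cy5 and -1.67 and -0.907 with it in Cy3 (unadjusted p = 0.108), so that its sign followed the dye.

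Of 28 genes of apoptosis on the array 24 were tested, and 20 (83.3%) had a negative response, against 58.3% of all probes, with a median of -0.278. Of the 24 genes 3 (12.5%) had an unadjusted p under 0.05, all on the negative side, where 3.38% of all probes did. Casp9, the caspase activated on the apoptosome, had -1.65, -1.32 and -1.36 with irradiated RNA in Cy5 and -0.743 and -1.05 with it in Cy3 (response -1.17 ± 0.207 SE, 95% interval -1.70 to -0.640, unadjusted p = 0.00234 in limma). All 5 arrays with a value were below 0.

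Bcl2l1, which encodes the survival factor Bcl-xL, had 0.0387, -0.764 and -1.39 with irradiated RNA in Cy5 and -1.41, -1.68 and -1.78 with it in Cy3 (response -1.16 ± 0.236 SE, 95% interval -1.74 to -0.587, unadjusted p = 0.00258 in limma). Only array 25 was above 0. Casp9 promotes apoptosis and Bcl2l1 opposes it. Casp6, an executioner caspase, had a response of -0.617 (unadjusted p = 0.0583), with all Cy5 arrays above 0 and all Cy3 arrays below it. With values as deposited, where the median over all probes moved by -0.375, the list median was -0.653.

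Of 14 tested targets of p53 9 were negative (64.3%, against 58.3% of all probes, median -0.0744), and 1 (7.14%) had an unadjusted p under 0.05, a share near the 7.03% of all probes. Trp53inp1, a p53-induced protein that promotes cell death, had -5.03, -6.28 and -0.539 with irradiated RNA in Cy5 and -0.976 and -0.631 with it in Cy3 (response -2.38 ± 0.891 SE, 95% interval -4.66 to -0.0929, unadjusted p = 0.0441 in limma). All 5 values were negative, but arrays 25 and 27 lay far from the other 3. Cdkn1a, the cell cycle inhibitor p21 and a standard marker of p53 activity after radiation, had -3.18, -1.62 and -1.17 with irradiated RNA in Cy5 and 0.325 and 1.36 with it in Cy3 (response -0.574, 95% interval -1.58 to 0.429, unadjusted p = 0.202). Its orientations had opposite signs. Polk, a DNA polymerase that copies past damaged bases, had a response of -0.373 (unadjusted p = 0.219).

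Of 27 tested genes of DNA damage signalling and repair 6 (22.2%) had an unadjusted p under 0.05, of which 5 were on the negative side, against 7.03% of all probes on both sides and 3.38% on the negative side. The list median was -0.0737, close to that of all probes. Xrcc1, the scaffold of single-strand break repair, had the smallest p of all 15942 probes, 0.000235. It had -7.94 and -7.96 with irradiated RNA in Cy5 and 1.68 and 2.03 with it in Cy3 (response -3.05), so that the orientations had opposite signs. Xrcc2, a protein of homologous recombination, had the same pattern, with -5.92 and -3.88 with irradiated RNA in Cy5 and 2.20 and 2.28 with it in Cy3 (response -1.33, unadjusted p = 0.0362). Wrn, described above, is also of this list and did not have this pattern, as it was negative on all 6 arrays (response -0.795, unadjusted p = 0.00575 in limma).

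Pcna, the sliding clamp of DNA replication and repair, was the member on the positive side, with 0.915, 0.707 and 0.845 with irradiated RNA in Cy5 and -0.0538, 0.341 and 0.0246 with it in Cy3 (response 0.463 ± 0.169 SE, 95% interval 0.0495 to 0.877, unadjusted p = 0.0337 in limma). Array 24 was the only one below 0. In the cell cycle list 3 of 25 tested genes (12%) had an unadjusted p under 0.05, against 7.03% of all probes. They were Ccne2, a cyclin of the start of DNA replication (1.01), and the replication helicase subunits Mcm2 (0.475) and Mcm7 (-0.635), so that 2 subunits of the same helicase lay on opposite sides. Ccne2 had values on 4 arrays, -0.364 and -0.392 with irradiated RNA in Cy5 and 2.42 and 2.37 with it in Cy3. Its sign thus followed the dye.

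Genes of the interferon response, which antiviral cytokines switch on through promoter elements bound by interferon regulatory factors, had the lowest list median with centred arrays, -0.363. Of 19 on the array 15 were tested, and 13 (86.7%) had a negative response, against 58.3% of all probes. However, 0 had an unadjusted p under 0.05, against 7.03% of all probes. The list median of turned values was above 0 on arrays 25 (0.428) and 29 (0.0792) and below 0 on the other arrays. Irf7, the regulatory factor that amplifies type I interferon, had 0.485, -1.47 and -1.02 with irradiated RNA in Cy5 and 0.305, -2.59 and -1.79 with it in Cy3 (response -1.01 ± 0.455 SE, 95% interval -2.12 to 0.0968, unadjusted p = 0.0670 in limma). Arrays 25 and 24 were above 0 and the other 4 below. Rsad2, the antiviral protein viperin, had 1.56, 0.514 and 0.518 with irradiated RNA in Cy5 and -1.13, -2.10 and -2.35 with it in Cy3 (response -0.500 ± 0.262 SE, 95% interval -1.14 to 0.140, unadjusted p = 0.105 in limma), all Cy5 arrays above 0 and all Cy3 arrays below it. Tap1, a peptide transporter for antigen presentation, had a response of -0.655 (95% interval -1.53 to 0.221), Ifit3, which binds viral RNA, of -0.363 (-1.18 to 0.456), and Isg15, a ubiquitin-like modifier, of -0.250 (-1.23 to 0.734).

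The promoters of 3 of these genes are given to show the element where the list has it. The letters GAAA, any 2 bases and GAAA again, the core of the interferon-stimulated response element, were searched on both strands (TTTC, any 2 bases and TTTC on the other) in the 250 bases before the start in RefSeq's promoters of the mouse assembly GRCm38.p6. They were found in 978 of 32851 promoters (2.98%) and in 5 of 12 tested genes of the list that matched a promoter. The 3 with the smallest p among those 5 are printed (Ifit3 and Isg15 are named for this reason, after their values were seen), 180 bases up to the start, 5′ to 3′ on the gene's strand, with matches in capitals, which overlap in Isg15. A match is a description of the sequence and not a measured binding site.
Rsad2, chr12:26456453-26456632, minus strand: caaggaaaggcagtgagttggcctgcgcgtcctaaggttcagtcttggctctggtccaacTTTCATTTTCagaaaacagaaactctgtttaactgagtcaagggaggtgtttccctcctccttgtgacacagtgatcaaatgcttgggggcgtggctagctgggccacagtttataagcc
Ifit3, chr19:34583349-34583528, plus strand: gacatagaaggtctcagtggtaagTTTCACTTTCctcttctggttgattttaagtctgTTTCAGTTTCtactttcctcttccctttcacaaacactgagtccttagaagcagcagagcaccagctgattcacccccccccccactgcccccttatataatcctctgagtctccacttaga
Isg15, chr4:156200819-156200998, minus strand: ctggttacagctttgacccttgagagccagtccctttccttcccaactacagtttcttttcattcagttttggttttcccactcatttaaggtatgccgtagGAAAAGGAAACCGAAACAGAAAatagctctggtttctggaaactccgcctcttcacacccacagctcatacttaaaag
Ifit3 had 2 matches, 156 and 122 bases before the start, and a response of -0.363. Rsad2 had 1 match, 120 bases before the start, and a response of -0.500. Isg15 had 3 overlapping matches between 78 and 66 bases before the start, and its turned values were 0.428, -2.45 and 0.0792 with irradiated RNA in Cy5 and 0.220, 0.0709 and 0.157 with it in Cy3, with array 27 far from the other 5 (response 0.201 without it).

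B cell genes also lay mostly on the negative side. Of 16 on the array 14 were tested, and 11 (78.6%) were negative, against 58.3% of all probes (median -0.355). Of the 14, 0 had an unadjusted p under 0.05, against 7.03% of all probes. The list median of turned values was above 0 on array 25 (0.656) and below 0 on the other arrays. Ms4a1, which encodes CD20, had -0.508, -1.25 and -0.224 with irradiated RNA in Cy5 and -0.275, -0.137 and -0.752 with it in Cy3 (response -0.524 ± 0.216 SE, 95% interval -1.05 to 0.00440, unadjusted p = 0.0514 in limma), negative on all 6 arrays. Cd79b, a signalling chain of the B cell receptor, had a response of -0.426 and Pax5, the transcription factor that fixes B cell identity, of -0.522. Tnfrsf13b of the same list had a response of -0.841. Its sign followed the dye, with -2.02 and -3.34 with irradiated RNA in Cy5 and 0.176, 1.66 and 1.16 with it in Cy3. In RNA of a whole organ, a change in the number of cells of a type and one in RNA per cell cannot be told apart, and the direction of the negative side is not known.

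In the other cell types of spleen 0 genes passed adjustment, as over all probes. T cell genes had a median of -0.200 over 13 tested genes, macrophages 0.00362 over 11 and natural killer cells 0.00949 over 8, with 0 at an unadjusted p under 0.05 in each. Neutrophil genes had 0.204 over 13, 9 of them positive, where 41.7% of all probes were. Erythroid genes had -0.0252 over 16 and platelet genes 0.156 over 8. Each of these lists again had 0 at an unadjusted p under 0.05. Of 7 dendritic cell genes 1 (14.3%, against 7.03% of all probes) had an unadjusted p under 0.05, the chemokine Ccl17 (-1.32), on 4 arrays with the sign following the dye. Stromal genes had a median of -0.213 over 14, 9 of them negative (64.3%, against 58.3% of all probes). Their median of turned values ran from -1.25 on array 27 to 0.319 on array 26. At an unadjusted p under 0.05 were 2 of the 14 (14.3%, against 7.03% of all probes). These were Tagln, an actin-binding protein of smooth muscle (-0.899), negative on all 5 arrays with a value, and Col1a2, a chain of type I collagen (-0.726). Col1a2 was 0.822 on array 25 and negative on the other arrays. Only 3 plasma cell genes were tested (median 1.29), none with a value on all 6 arrays. Their median of turned values was -1.96 and -1.01 on arrays 25 and 29, with irradiated RNA in Cy5. It was 0.643, 2.87 and 1.95 on arrays 24, 26 and 28, with it in Cy3, so that its sign followed the dye.

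Spleen lies beside the pancreas, whose secreted enzymes can enter a dissection. Of 21 tested pancreatic genes the median was 0.0446, and 1 (4.76%) had an unadjusted p under 0.05, against 7.03% of all probes. This was the phospholipase Pla2g1b, with 0.524, -0.0300 and 0.868 with irradiated RNA in Cy5 and 1.12, 0.528 and 0.722 with it in Cy3 (response 0.622, unadjusted p = 0.0227). The digestive protease Prss1 had 1.79, -0.0735 and -0.0381 with irradiated RNA in Cy5 and 0.948, 0.288 and 0.111 with it in Cy3, with array 25 above the rest. Adipose genes had a median of -0.0688 over 8, with 0 at an unadjusted p under 0.05. The part of neighbouring tissue in the results above was not tested.

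Of heat shock genes, which encode chaperones, 3 of 12 tested (25%) had an unadjusted p under 0.05, in both directions, against 7.03% of all probes. Bag3, a cochaperone of Hsp70, had 0.181, 0.228 and 0.922 with irradiated RNA in Cy5 and 1.36, 0.537 and 0.781 with it in Cy3 (response 0.668 ± 0.212 SE, 95% interval 0.150 to 1.19, unadjusted p = 0.0196 in limma), above 0 on all 6 arrays. Dnaja1, an Hsp40 cochaperone, had a response of -0.681, and Hsph1, a member of the Hsp110 family, of -1.41. In both, the Cy5 arrays were all negative and the Cy3 arrays had both signs. Dnaja1 had -1.25 and -1.67 with irradiated RNA in Cy5 and 0.328, -0.134 and 0.0963 with it in Cy3. Hsph1 had -0.973, -2.77 and -4.88 with irradiated RNA in Cy5 and 0.565, -0.536 and 0.139 with it in Cy3. Of oxidative stress genes 1 of 20 did, the peroxidase Prdx5 (0.557, unadjusted p = 0.0310). Of the immediate early genes, which include Jun and Atf3, 0 of 13 did, with responses of 0.401 and -0.709. Ribosomal proteins (30 tested), mitochondrial respiration (21), the major histocompatibility complex (10) and glucocorticoid-responsive and circadian genes (9) also had 0. Their medians were 0.0321, -0.0656, -0.117 and -0.237.

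**Figure D3:**
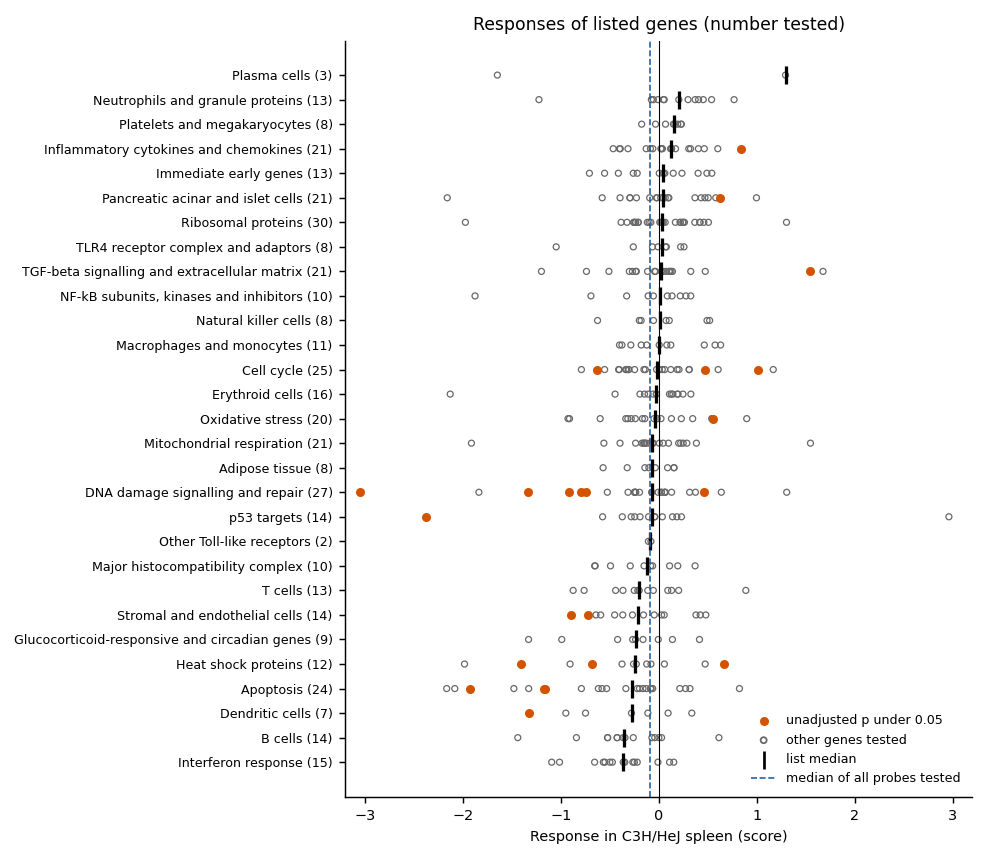
Response (score, x axis) of each tested gene of 29 lists in C3H/HeJ spleen, with the number tested beside the list, filled points for an unadjusted p under 0.05, a tick for the list median and a dashed line for the median of all probes tested (-0.0878). The list medians run from -0.363 for interferon response genes to 1.29 for the 3 plasma cell genes (0.157 without array 26), and 2 genes lie outside the axis.

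Some genes that the paper discusses by name were on the array by accession. Ltbp2, a matrix protein that binds fibrillin, had 1.54, 0.615 and 0.955 with irradiated RNA in Cy5 and -1.11, -1.67 and -1.96 with it in Cy3 (response -0.270 ± 0.219 SE, 95% interval -0.806 to 0.266, unadjusted p = 0.265 in limma), and all Cy5 arrays lay above 0 and all Cy3 arrays below it. Smcp, a mitochondrial capsule protein of sperm, had 0.467, -0.147 and 0.166 with irradiated RNA in Cy5 and -1.74, -1.99 and -2.21 with it in Cy3 (response -0.910 ± 0.184 SE, 95% interval -1.36 to -0.461, unadjusted p = 0.00253 in limma). Tgfbi, a TGF-beta-induced matrix protein, had a response of -0.230 (95% interval -0.867 to 0.408), and Notch3, a receptor of the Notch pathway, of -0.167 (-0.896 to 0.562). Top3a, a DNA topoisomerase, had values on 3 arrays and was not tested. In the list of TGF-beta signalling and extracellular matrix 1 of 21 tested genes (4.76%) had an unadjusted p under 0.05, against 7.03% of all probes. This was Fbn1, which encodes fibrillin 1, with 0.156, 0.185 and 0.933 with irradiated RNA in Cy5 and 4.40 and 0.937 with it in Cy3 (response 1.55, and 0.681 without array 26).

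Whether C3H/HeJ responded differently from the other 5 strains was tested as the C3H/HeJ response minus the mean response of the others, over 13556 probes on all 38 arrays. The spread of a probe was taken from all 38 arrays together. The SE of the difference could thus be below that of the response in the C3H/HeJ fit, as for Trp53inp1 (0.557 against 0.891). For Bcl2l1 it was above it (0.449 against 0.236). How far the calls rest on the spread in the other strains was not tested. By limma, 146 probes (1.08%) passed adjustment, 89 on the positive side (0.657%) and 57 on the negative side, and 33 of them had a gene symbol. The count fell to 1 with values as deposited, 6 with arrays divided by their spread and 5 with 1 dye term shared by all strains. It was 493 without array 25 (237 on the positive side) and 353 without array 29 (60 on the positive side), so that 1 array moved both the count and its balance. Missing values moved with the calls. Of probes with values on 4 C3H/HeJ arrays 5.08% were called, against 1.15% of those with 5 and 0.545% of those with 6, and their part in the result was not tested.

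On the positive side the smallest p belonged to Tssk1, a kinase of the testis. It had -2.32 and -1.22 with irradiated RNA in Cy5 and 9.75 and 6.32 with it in Cy3 in C3H/HeJ (response 3.13), and the other strains averaged -0.0777 (difference 3.21, adjusted p = 0.000188 in limma). Itgb1bp1, a protein that binds the beta 1 integrin tail, had -1.48 and -1.21 with irradiated RNA in Cy5 and 7.72 and 6.41 with it in Cy3 (difference 3.09, adjusted p = 0.000188). Rnf19a, a ubiquitin ligase, had a difference of 3.52, Slc22a21, a carnitine transporter, of 1.83, and Rapgef4, an exchange factor for Rap1 driven by cyclic AMP, of 1.84. All 5 had values on 4 C3H/HeJ arrays. In all but Rapgef4 both Cy5 values were negative and both Cy3 values positive. All 5 lost their call with values as deposited, with arrays divided by their spread and with a shared dye term (for Tssk1, adjusted p = 0.489, 0.0954 and 0.165 in limma).

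On the negative side Atp8b3, a lipid flippase, had -6.73 and -9.23 with irradiated RNA in Cy5 and -2.70 and 0.285 with it in Cy3 in C3H/HeJ (response -4.59), and the other strains averaged 0.183 (difference -4.78, adjusted p = 7.00e-05 in limma). It passed under every other setting tried, on 4 C3H/HeJ arrays. Srsf5, a splicing factor, was negative on all 5 arrays with a value, -1.79 and -1.50 with irradiated RNA in Cy5 and -0.700, -1.99 and -0.907 with it in Cy3, with a difference of -1.52 (adjusted p = 0.0116). Add3, which caps actin filaments, had a difference of -1.80, Chmp1b, a subunit of the ESCRT membrane-cutting complex, of -1.95, and Msh3, a mismatch repair protein, of -1.97. Each of these had values on 4 C3H/HeJ arrays. Add3 had -5.54 and -3.81 with irradiated RNA in Cy5 and 0.684 and 1.06 with it in Cy3, so that its sign followed the dye. Chmp1b had -3.49 and -5.69 in Cy5 and -0.633 and 0.972 in Cy3. For Msh3 they were -6.62 and -2.52 in Cy5 and 0.803 and -0.0433 in Cy3. Srsf5 (adjusted p = 0.674, 0.185 and 0.0877 in limma), Add3, Chmp1b and Msh3 lost their call with values as deposited, with arrays divided by their spread and with a shared dye term.

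Of genes named in the lists or for their sign, 4 passed this test too. Bcl2l1 had a response of -1.16 in C3H/HeJ and of 0.761 on average in the others, with 1.55 in C57Bl6/J, 1.45 in DBA/2J, 0.726 in Balb/C, 0.387 in B6.C and -0.305 in A/J (difference -1.93, adjusted p = 0.0393). Krt88, with -0.0731, -2.90 and -1.74 with irradiated RNA in Cy5 and -0.654, -1.14 and -1.05 with it in Cy3 in C3H/HeJ, averaged -0.0158 in the others (difference -1.24, adjusted p = 0.0322). Trp53inp1 had a difference of -2.33 (adjusted p = 0.0357) and Apaf1, which forms the apoptosome, of 3.24 (adjusted p = 0.0329). Apaf1 had -1.35 and -1.14 with irradiated RNA in Cy5 and 11.3 and 3.07 with it in Cy3, so that its sign followed the dye, and its response in C3H/HeJ alone had an unadjusted p of 0.112. Each of these 4 lost its call when values were used as deposited, when arrays were divided by their spread and when 1 dye term was shared, and also without at least 2 of the single arrays. With the signs of arrays 97, 50 and 53 turned, Krt88 (adjusted p = 0.0883) and Bcl2l1 (0.0676) lost theirs, and without these arrays Apaf1 did (0.0524).

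**Figure D4:**
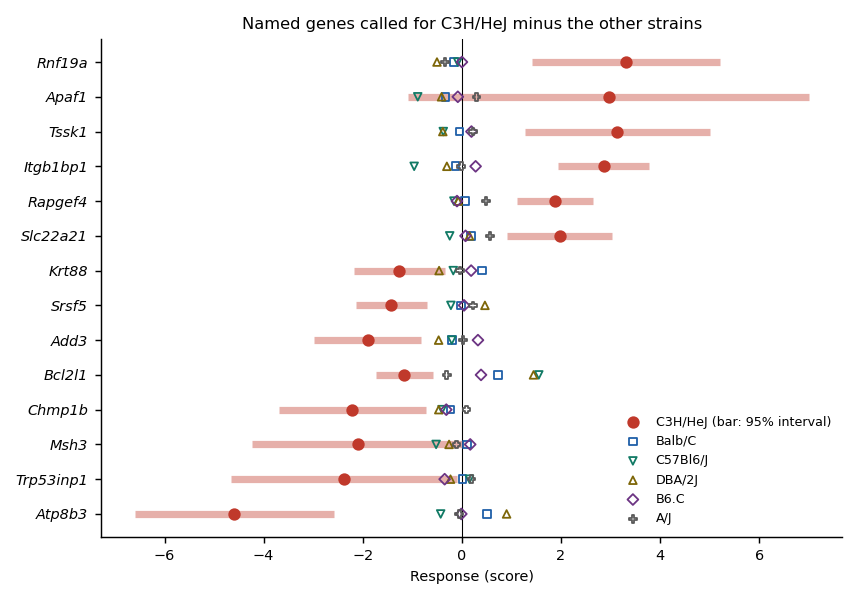
Response (score, x axis) in C3H/HeJ (filled points, with the 95% interval of the C3H/HeJ fit) and in the other 5 strains (open symbols) of the 14 named genes that passed the contrast of C3H/HeJ minus the other strains. The open symbols lie between -1 and 1 except for Bcl2l1, which reached 1.55 in C57Bl6/J and 1.45 in DBA/2J, while C3H/HeJ runs from -4.59 for Atp8b3 to 3.31 for Rnf19a.

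Over the 13556 probes the C3H/HeJ response correlated at -0.122 with Balb/C, -0.0997 with C57Bl6/J, -0.0754 with DBA/2J, -0.0139 with A/J and 0.101 with B6.C. Between the other strains the 10 correlations ran from -0.215 to 0.596. These are correlations across probes, which are not independent replicates, and the direction of array 97 of C57Bl6/J and of arrays 50 and 53 of B6.C is not settled.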

How the data were processed

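The authors deposited 1 table for all 38 arrays with a signed score per spot. By the paper, spots of poor quality or low expression had been removed, local background subtracted and arrays normalized by Lowess. How the score was scaled, to which log base, and which dye is on top is not given in the sources used here, and no transformation was applied. Spots of the Blank, buffer and Alien controls were dropped, spots of one probe were averaged (21997 spots, 21618 probes), and symbols were looked up by RefSeq accession (GRCm38.p6).

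Each array was centred on its probe median. For the 6 C3H/HeJ arrays the lmFit and eBayes functions of limma 3.58.1 (R 4.3.3) fitted an intercept, which takes up the dye component, and the irradiated dye as +1 for Cy5 and -1 for Cy3. A probe was called at a Benjamini-Hochberg adjusted p under 0.05, and an unadjusted p under 0.05 served as a looser rule. The difference from the other 5 strains was a contrast over 38 arrays with a dye term and a response per strain, for probes that also had at least 1 value of each orientation in every other strain. The scripts were tested on simulated data. The labels say that each pair of mice was hybridised on 2 arrays, but not which, so arrays were the units. The number of arrays limits the precision.

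The genes named are, on each side, the 12 with the smallest p among those with one sign on all 6 arrays, every measured gene of the Tlr4 list, at most 4 genes of each of the other 28 lists, taken by p, the 5 on each side with the smallest p in the contrast of strains, and genes the paper names. For some genes so chosen no result is reported here. The members and lists were chosen with earlier results of these data known. Other centrings, filters, spread estimates, weights, samples in the fit and matchings of swap partners were tried, and each C3H/HeJ array was left out in turn. A spread that follows the mean value, and a weight for each strain in the contrast, were added after seeing the data.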

Additional observations from a re-analysis of the deposited data

Results flagged for a closer look

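Of 156 groups of 4 to 6 C3H/HeJ arrays that were examined (the turned values of the named genes and 4 measures of the arrays), 10 (6.41%) held an array far from the rest, where chance marks about 1 in 20. Array 27 was the one apart in 5 of them. Atp5b, a subunit of ATP synthase, had -13.1 on array 27 and -0.0778 to 0.825 on the others, and its response was 0.330 without that array, against -1.91 with it. Slc4a1, the anion exchanger of red cells, had -10.7 there, against -2.93 to 0.0335 on the others. Nfkb1 had -8.43, against -2.28 to 0.0804, and Isg15 had -2.45, against 0.0709 to 0.428. Car3, a carbonic anhydrase of fat and muscle, had -2.45, against -0.598 to 0.320. On array 25, Kel, a blood group protein, had -13.8, against -1.63 to 2.12, and Calm4 had -1.51, against -0.503 to -0.108. On array 26, Fbn1 had 4.40, against 0.156 to 0.937, and Ly86 had -1.07, against 0.0491 to 0.450. On array 28, S100a9, a calcium-binding protein of neutrophils, had -0.822, against 0.694 to 1.23.

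The response of 14 named genes differed between C3H/HeJ and the other 5 strains in the contrast over 38 arrays. The difference was 3.52 for Rnf19a, 3.24 for Apaf1, 3.21 for Tssk1, 3.09 for Itgb1bp1, 1.84 for Rapgef4 and 1.83 for Slc22a21. It was -4.78 for Atp8b3, -2.33 for Trp53inp1, -1.97 for Msh3, -1.95 for Chmp1b, -1.93 for Bcl2l1, -1.80 for Add3, -1.52 for Srsf5 and -1.24 for Krt88. Values were missing on 1 or 2 of the 6 C3H/HeJ arrays for all of these but Bcl2l1 and Krt88. All 14 but Atp8b3 lost their call with values as deposited, with arrays divided by their spread and with a shared dye term.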

How the results depend on the processing

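With C3H/HeJ arrays alone, 0 probes passed adjustment under every setting, each array left out included. With all 38 arrays, 155 passed with a dye term per strain and 2 with a shared one. At an unadjusted p under 0.05, the count of 1120 became 2091 with all arrays and a dye term per strain. It became 4979 with array weights, whose estimate did not converge. It was 682 with arrays 25 and 24, 27 and 26, and 29 and 28 as swap partners, 618 with 25 and 26, 27 and 24, and 29 and 28, and 568 to 1819 with an array left out (568 without array 26, 682 without 28, 706 without 27, 1819 without 24). Probes with one sign on all 6 arrays were 13 as deposited, against 269 after centring. The contrast with the other strains called 1 probe as deposited, 6 after scaling and 5 with a shared dye term, and 124 to 493 with an array left out, against 146. Weighting each strain by its own spread, the median over its probes, gave 134. These spreads were 0.663 in C3H/HeJ and 0.547 to 0.762 in the others. A larger spread of single probes in C3H/HeJ is not weighed by this setting.

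As deposited, list medians fell with that of all probes (by 0.375), to -0.399 for the Tlr4 list, -0.273 for cytokines, -0.451 for DNA repair, -0.653 for apoptosis, -0.463 for oxidative stress, -0.310 for immediate early genes and -0.747 for heat shock. They were -0.569 for circadian genes, -0.510 for mitochondria, -0.644 for T cells, -0.434 for natural killer cells, -0.378 for pancreas and -0.476 for fat.

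Signs turned as deposited for Cd180 (-0.368), Irak1 (-0.0995) and Ly86 (-0.376), with array weights for Ly86 (-0.352) and Traf3 (-0.170), and after scaling for Traf6 (0.0730). Myd88 gave 0.143 with a shared dye term, and 0.259 or 0.0775 in 4 matchings of swap partners. With an array left out, responses ran from -0.0820 to 0.282 for Ly86, -0.532 to 0.383 for Myd88, -0.133 to 0.240 for Traf6, -0.335 to 0.0665 for Notch3, -0.519 to 0.201 for Isg15 and -0.170 to 0.614 for Traf3, and the median of immediate early genes from -0.227 to 0.196. The causes were not tested.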
